A study of Homo sapiens with 2 samples.

Results

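The 6 glypicans (GPC1 to GPC6) and the 4 syndecans (SDC1 to SDC4) are the 2 families of heparan sulfate proteoglycans of the cell surface, and all 10 genes were measured in Huh7 cells with and without a hairpin against CD24. They were taken as every probe set, a group of short probes for a transcript, that the array's annotation assigns to a single member and to no other gene. This gave 18 probe sets of 54675 in the table, and 10 genes of 19775. Huh7 is an established line of human hepatocellular carcinoma. The control culture was stably transduced by lentivirus with a non-target hairpin, the other with a short hairpin RNA (shRNA) against CD24. Both cultures were grown in DMEM with 10% serum and 1% penicillin-streptomycin. Each group held 1 culture and 1 Affymetrix array of total RNA, so no p-value, standard error or replicate check exists for any value, and precision is limited by having 1 array per group. The labels name 1 CD24 hairpin without its sequence and do not say whether the cells were clones. The comparison asks which transcripts differ when CD24, a small mucin-like protein held to the membrane by a glycosylphosphatidylinositol (GPI) anchor, is knocked down.

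Both families carry long, sulfated heparan sulfate chains that bind growth factors, morphogens, chemokines and matrix proteins at the cell surface. Glypicans have a folded, cysteine-rich core that is held by a GPI anchor, and they act mainly as co-receptors or competitors in Wnt, Hedgehog and FGF signalling. Syndecans cross the membrane, and their short cytoplasmic tails reach PDZ proteins, kinases and the actin cytoskeleton. In the liver, syndecan-1 on hepatocytes takes part in the clearance of lipoproteins, and glypican-3 is an oncofetal protein used as a marker of hepatocellular carcinoma.

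The deposited values are on the log2 scale and centred within each probe set, so the 2 arrays of a probe set have equal and opposite values and only their difference can be read. A difference is given as CD24 shRNA (the knockdown array) minus control, and a gene takes the mean of the differences of its probe sets. The error is the SD over probe sets of that gene, which covers disagreement between probes and not the spread between cultures. Pooled over 10523 genes with 2 or more probe sets, that SD was 0.27. Across all genes, 0.632% were at least 2-fold higher with CD24 shRNA and 0.485% at least 2-fold lower, and the median difference was 0. After scaling by the hybridisation controls the split of the genes past 2-fold was 165 higher and 78 lower, against 125 and 96 as deposited. CD24 itself was 2.58-fold lower (log2 difference -1.37 ± 0.38, SD, 6 probe sets). The last digits of the values bound the brightness of some probe sets, because single-precision numbers below 4 or 8 are stored in finer steps. By this measure the dimmer array lay below a log2 level of 4, near the background of such arrays, on 3 of the 18 member probe sets. It lay below 8 on another 5, while the other 10 had no bound. Over all gene probe sets, 25.4% were placed below 4 and another 29.8% below 8.

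GPC5, GPC4 and SDC4 had the largest differences of the 10 genes, all higher with CD24 shRNA. GPC5 was 5.38-fold higher on 1 probe set near the background in the control array, so this fold is the ratio of the deposited values and not a well-measured size. GPC4 was 2.11-fold higher on the mean of probe sets that disagreed, and SDC4 1.94-fold higher. GPC5 and GPC4 were the 2 members past 2-fold in the higher direction, where 0.632% of all genes lay, and the count was 1 without probe sets placed below 4. None of the 10 was 2-fold lower, where 0.485% of all genes lay. Of the 10 members, 6 lay above 0 and 4 below, with a median of 0.37, where 49.4% of all genes lay above 0 and 47.5% below. The glypicans had a median of 0.51 (4 of 6 above 0) and the syndecans one of 0.076 (2 of 4 above 0).

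**Figure D1:**
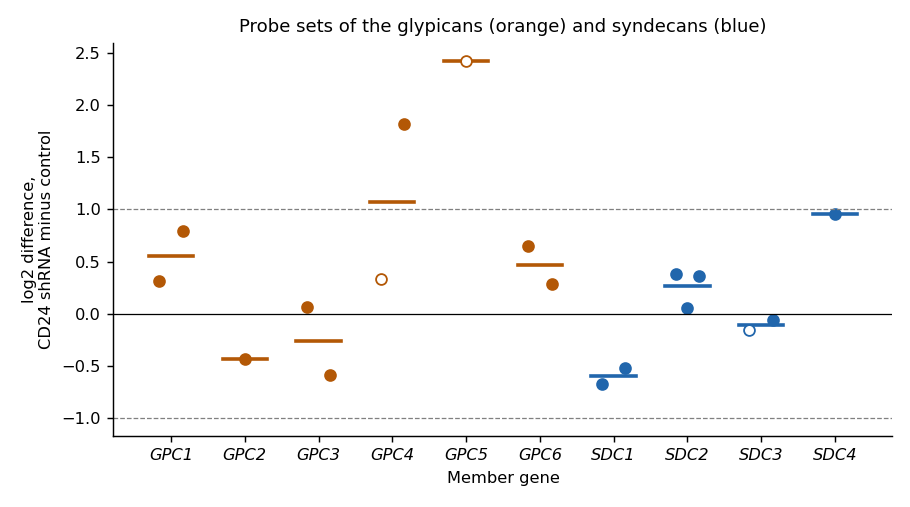
Log2 difference, CD24 shRNA minus control, of each of the 18 probe sets (points) and the mean of each gene (bars), for glypicans (orange) and syndecans (blue). Open points are the 3 probe sets whose dimmer array was placed below 4, and dashed lines mark a 2-fold difference; GPC5 and 1 of the 2 GPC4 probe sets lie above the upper line, and no point lies below the lower one.

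GPC5, a glypican that strengthens Hedgehog signalling in some tumours, is measured by 1 probe set. The control array held a centred value of -1.21 and the knockdown array one of 1.21, a log2 difference of 2.43. Counting GPC5, 8 of the 19775 genes had a difference at least as high. The dimmer value of this probe set was placed below 4, so in the control array GPC5 lay near the background, and the size of its difference rests on a single probe set with no second one to check it.

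GPC4, a glypican that binds FGF2 and is released from the membrane in several tissues, is measured by 2 probe sets that disagreed in size. Probe set 204984_at had -0.91 in the control array and 0.91 in the knockdown array, a log2 difference of 1.82 or 3.53-fold. Probe set 204983_s_at, whose dimmer array was placed below 4, had -0.16 and 0.16, a log2 difference of 0.33. Both were higher with CD24 shRNA, but they lay 1.49 apart, and only 18 of the 5015 genes with 2 probe sets had a gap as wide. The gene mean of 1.07 ± 1.05 (SD, 2 probe sets) therefore stands for neither probe set. GPC4 passed 2-fold on the mean and, by a wider margin, on the first probe set alone.

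GPC1 and GPC6 were higher by less than 2-fold, each on both of its probe sets. GPC1, a co-receptor for FGF2 and other heparin-binding growth factors, had centred values of -0.16 and -0.40 in the control array against 0.16 and 0.40 in the knockdown array. Its log2 differences were 0.32 and 0.79, with a mean of 0.55 ± 0.34 (SD, 2 probe sets), which is 1.47-fold. GPC6, which promotes Hedgehog signalling in growing bone, had -0.32 and -0.14 in the control array against 0.32 and 0.14. Its log2 differences were 0.65 and 0.29, with a mean of 0.47 ± 0.26 (SD, 2 probe sets). Both means exceeded the pooled SD between probe sets, and each gene has 1 probe set only slightly above it.

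GPC3 and GPC2 lay below 0. GPC3, the hepatoma marker, had probe sets on opposite sides of 0. Probe set 209220_at had -0.030 in the control array and 0.030 in the knockdown array, a log2 difference of 0.060, and probe set 243243_at had 0.29 and -0.29, a log2 difference of -0.58. The mean of -0.26 ± 0.46 (SD, 2 probe sets) was smaller than its own spread, so no direction can be given for GPC3. Opposite signs were found in 35.4% of genes with 2 probe sets, while a gap as wide as the 0.64 of GPC3 was found in 7.24% of them. GPC2, a glypican of the developing nervous system, had 0.22 in the control array and -0.22 in the knockdown array, a log2 difference of -0.44 on 1 probe set.

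Among the syndecans, SDC4 was higher and SDC1 lower with CD24 shRNA. SDC4, the syndecan of focal adhesions that recruits and activates protein kinase C alpha, had -0.48 in the control array and 0.48 in the knockdown array on its 1 probe set. The log2 difference of 0.95, or 1.94-fold, was just under the 2-fold threshold, and 149 genes, SDC4 included, were at least as high. SDC1, the main syndecan of epithelial cells and hepatocytes, had 0.34 and 0.26 in the control array against -0.34 and -0.26 in the knockdown array. Its 2 probe sets had log2 differences of -0.68 and -0.52, a mean of -0.60 ± 0.11 (SD, 2 probe sets), which is 1.51-fold lower. The SDC1 probe sets agreed more closely than those of any higher member with 2 or more probe sets, and 449 genes, SDC1 included, were at least as low. At 1.5-fold, GPC5, GPC4 and SDC4 were higher, where 2.63% of all genes lay, and SDC1 alone was lower, where 2.38% lay. At 3-fold, GPC5 alone was higher, where 0.162% lay.

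SDC2 and SDC3 differed little. SDC2, the syndecan of mesenchymal cells that is also made in liver, had -0.19, -0.18 and -0.027 in the control array and the same sizes above 0 in the knockdown array. Its log2 differences were 0.38, 0.36 and 0.053, a mean of 0.27 ± 0.18 (SD, 3 probe sets), about the pooled SD between probe sets. SDC3, a syndecan best known from neural tissue, had 0.080 and 0.032 in the control array and the same sizes below 0 in the other. The log2 differences of SDC3 were -0.16 and -0.064, a mean of -0.11 ± 0.07 (SD, 2 probe sets), and the first of these probe sets was placed below 4.

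In order of the gene difference, from high to low, the members were GPC5, GPC4, SDC4, GPC1, GPC6, SDC2, SDC3, GPC3, GPC2 and SDC1. GPC5 stood 1.35 above GPC4, SDC4 stood 0.40 above GPC1, and SDC2 stood 0.38 above SDC3. All other neighbours in this order lay closer together than the pooled SD between probe sets of 0.27, so their order is not resolved. That SD does not cover the spread between cultures, so the wider gaps are not established either. GPC4 had an SD of 1.05 over its own probe sets, and GPC5 rests on 1 probe set near the background. This is an order of differences between the arrays and not of transcript levels, which the table does not hold.

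**Figure D2:**
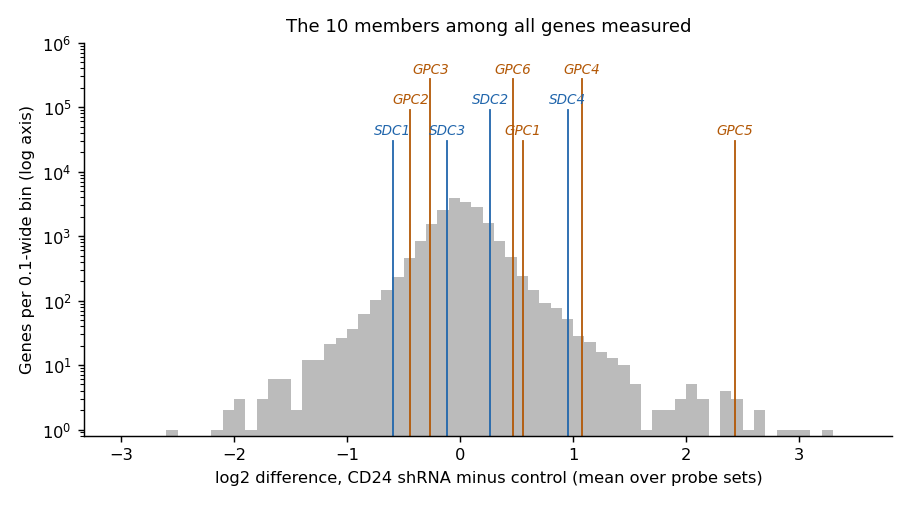
Histogram of the log2 difference of all 19775 genes (grey, number of genes per bin on a log axis), with lines at the 10 members, glypicans in orange and syndecans in blue. GPC5 at 2.43 lies in the sparse upper tail, GPC4 and SDC4 near 1, and the remaining 7 members between -0.60 and 0.55.

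Members that lie next to each other in the genome were compared, with gene order taken from RefSeq (GRCh38.p14). GPC3 and GPC4 are neighbours on chromosome X, and GPC5 and GPC6 are neighbours on chromosome 13. GPC5 and GPC6 were both higher with CD24 shRNA, with differences of 2.43 and 0.47, whereas the coding genes measured on either side, SLITRK5 and TGDS, had -0.012 and -0.25. GPC4 was higher, while its neighbour GPC3 had the unresolved mean of -0.26, and TFDP3 and CCDC160, which flank the pair, had -0.12 and 0.10.

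The sequences before the transcription start are shown for the 3 members with the highest differences and for SDC1, the lowest, because these carry the contrast between the members. RefSeq promoters (GRCh38.p14) were found for 8 of the 10 members. The 250 bases before the start are printed 5′ to 3′ on the strand of the gene, for SDC1 at the more upstream of its 2 starts. Capitals mark matches, on either strand, to the GC box GGGCGG or the TATA box TATAAA.
GPC5, chr13:91398371-91398620, plus strand: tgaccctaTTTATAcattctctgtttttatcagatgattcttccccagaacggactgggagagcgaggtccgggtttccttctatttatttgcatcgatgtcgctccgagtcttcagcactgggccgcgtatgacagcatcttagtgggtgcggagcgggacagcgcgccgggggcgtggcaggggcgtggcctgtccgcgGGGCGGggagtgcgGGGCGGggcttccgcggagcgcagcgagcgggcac
GPC4, chrX:133415490-133415739, minus strand: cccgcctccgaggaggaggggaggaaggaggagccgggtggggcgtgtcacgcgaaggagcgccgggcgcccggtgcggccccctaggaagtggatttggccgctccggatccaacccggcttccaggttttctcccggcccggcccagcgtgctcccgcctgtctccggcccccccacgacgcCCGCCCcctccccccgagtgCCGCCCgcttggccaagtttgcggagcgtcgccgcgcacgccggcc
SDC4, chr20:45348425-45348674, minus strand: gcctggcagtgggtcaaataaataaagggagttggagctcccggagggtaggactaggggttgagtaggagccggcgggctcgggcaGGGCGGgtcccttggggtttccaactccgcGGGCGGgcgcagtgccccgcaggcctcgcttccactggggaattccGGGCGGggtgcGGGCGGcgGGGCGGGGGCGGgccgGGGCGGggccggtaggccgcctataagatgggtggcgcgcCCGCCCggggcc
SDC1, chr2:20225476-20225725, minus strand: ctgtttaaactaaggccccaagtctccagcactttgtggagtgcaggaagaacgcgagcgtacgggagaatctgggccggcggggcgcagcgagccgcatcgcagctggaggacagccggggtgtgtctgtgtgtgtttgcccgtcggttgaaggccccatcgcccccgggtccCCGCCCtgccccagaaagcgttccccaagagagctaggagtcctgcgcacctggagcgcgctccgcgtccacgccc

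The GC box, the site of SP1-type factors, was matched 8 times before SDC4, 2 times each before GPC5 and GPC4, and 1 time before SDC1. At least 1 GC box was present in 7 of the 8 member promoters and in 42.6% of all 35116 promoters of this length. The TATA box was matched 1 time each before GPC5 and GPC6, the tandem pair on chromosome 13, and in 10.7% of all promoters. Only exact matches to the letters were counted, without regard to distance from the start. The matches therefore do not show which members use a TATA box. The other 4 motifs searched on both strands had no match in the 8 member windows. These were the TEAD element GGAATG (11.9% of all promoters), the AP-1 element TGANTCA (6.57%), the E-box CACGTG (6.34%) and the cyclic AMP response element TGACGTCA (1.65%). The GC content of the 250 bases was 62.4% for GPC5, 76.0% for GPC4, 73.6% for SDC4 and 66.4% for SDC1, against a median of 58.0% over all promoters, and that of GPC6 was 37.6%. GPC6 was the member with no GC box in this window.

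The enzymes that build the chains were compared next, since every member needs them. None of the 12 genes of linker and chain synthesis was 1.5-fold different in either direction, where 2.63% of all genes were higher and 2.38% lower. Of these 12, 8 lay below 0, where 47.5% of all genes lay, and the median was -0.074 against 0 over all genes. EXTL2, a linker-region transferase, had -0.54, FAM20B, the kinase that phosphorylates the linker xylose, -0.51 ± 0.31 (SD, 2 probe sets), and PXYLP1, the phosphatase that removes this phosphate, -0.43 ± 0.30 (SD, 2 probe sets). Of 18 measured genes of chain sulfation, 12 lay above 0, where 49.4% of all genes lay, with a median of 0.11. GLCE, the epimerase that turns glucuronic into iduronic acid, was 1.96-fold lower on 1 probe set. NDST4, an N-deacetylase and N-sulfotransferase, had 0.47 ± 0.21 (SD, 2 probe sets). HS6ST2, a 6-O-sulfotransferase, had 0.46 ± 0.06 (SD, 3 probe sets). None of the 18 passed 2-fold, where 0.632% of all genes lay higher and 0.485% lower.

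Of 16 genes that edit the chains, release the cores or restrain that release, 14 lay above 0, where 49.4% of all genes lay. Their median was 0.21 and none was past 2-fold, where 0.632% of all genes lay higher and 0.485% lower. Of their 42 probe sets, 11 were placed below 4, where 25.4% of all gene probe sets lay. The list mixes genes of opposed function, so the count gives no net direction of editing or shedding. TIMP3, an inhibitor of the metalloproteinases that shed syndecans, was 1.98-fold higher (0.98 ± 0.63, SD, 4 probe sets). PCSK5, a proprotein convertase, was 1.84-fold higher (0.88 ± 0.20, SD, 3 probe sets). SULF2, the extracellular sulfatase that removes 6-O-sulfates from heparan sulfate, was 1.57-fold higher (0.65 ± 0.05, SD, 2 probe sets).

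The machinery that holds or links the cores had no gene past 2-fold, where 0.632% of all genes lay higher and 0.485% lower. Of 27 genes of GPI anchor synthesis, which glypicans and CD24 both need, 11 lay above 0 and 16 below, where 47.5% of all genes lay below. Their median was -0.030, and 2 were at least 1.5-fold lower, where 2.38% of all genes lay. The largest were PIGZ, a mannosyltransferase of the anchor, at -0.81 on 1 probe set, PIGX, a subunit of another anchor mannosyltransferase, at -0.61 ± 0.36 (SD, 3 probe sets), and PGAP1, which remodels the anchor lipid, at -0.35 ± 0.21 (SD, 5 probe sets). Of 8 measured partners of the syndecan tail, 7 lay above 0, where 49.4% of all genes lay. Their median was 0.13, with no gene past 1.5-fold, where 2.63% of all genes lay higher and 2.38% lower. EZR, which links membrane proteins to actin, had 0.30 ± 0.27 (SD, 5 probe sets), and CASK, a PDZ scaffold, 0.26 ± 0.19 (SD, 5 probe sets). The 11 other proteoglycans lay between -0.27 and 0.25, with a median of 0.11. TGFBR3, a part-time proteoglycan that binds TGF-beta, was the lowest, HSPG2, the basement membrane proteoglycan perlecan, the highest, and SPOCK2, a testican, had 0.22 ± 0.30 (SD, 2 probe sets).

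Among ligands and receptors that use heparan sulfate, 1 of 25 ligands and 1 of 32 receptors were at least 2-fold higher, where 0.632% of all genes lay, and none was 2-fold lower. Of the 25 measured ligands, 16 lay above 0, where 49.4% of all genes lay, and 6 were at least 1.5-fold higher, where 2.63% lay, with a median of 0.090. The only ligand past 2-fold was WNT11, a Wnt of the non-canonical branch, which was 2.48-fold higher on 1 probe set placed below 4. Of 32 measured receptors, 15 lay above and 17 below 0, with a median of -0.032. FZD5, a Wnt receptor, was 2.19-fold higher (1.13 ± 0.01, SD, 2 probe sets) and was the only receptor past 2-fold. Of 11 measured matrix ligands of syndecans, 10 lay above 0, where 49.4% of all genes lay, with a median of 0.22. At least 2-fold higher were 2 of the 11, where 0.632% of all genes lay. CCN1, a matricellular protein that cells bind through integrins and SDC4, was 4.23-fold higher (2.08 ± 0.30, SD, 2 probe sets). THBS1, thrombospondin-1, was 3.02-fold higher on 7 probe sets that ranged from 0.048 to 2.90 (1.60 ± 1.01, SD). Of these 7 THBS1 probe sets, 3 were placed below 4.

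**Figure D3:**
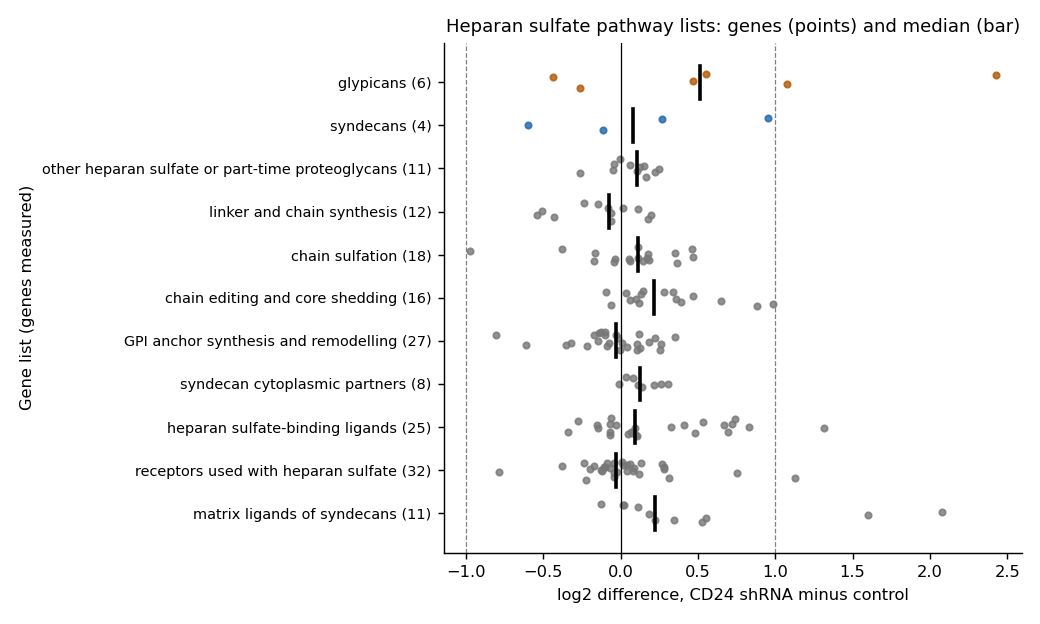
Log2 difference, CD24 shRNA minus control, of each gene (points) in the 2 member families and in 9 lists of the heparan sulfate pathway, with the median of each list as a black bar and the number of genes measured in brackets; dashed lines mark 2-fold. The glypicans have the highest median of the 11 lists, at 0.51 over 6 genes, and the matrix ligands reach 2.08 with CCN1. Members and lists were chosen with earlier results of these data known, so the rank is a description and not a test.

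Marker genes of other cell types were read beside these values, since glypicans and syndecans differ between cell types. The table holds no levels, so the presence of a marker cannot be read, but the bound from the digits placed 1 of 23 probe sets of hepatocyte and hepatoma markers below 4. The same bound placed 17 of 35 below 4 for stellate cell and fibroblast markers, 10 of 19 for endothelial markers and 5 of 14 for leukocyte markers. Over all gene probe sets, 25.4% were placed below 4. Of 9 measured hepatocyte and hepatoma markers, 3 lay above 0 and 6 below, where 47.5% of all genes lay below. Their median was -0.086, and GPC3, itself a member with no resolved direction, was among the 6. Of 10 stellate cell and fibroblast markers, 7 lay above 0, where 49.4% of all genes lay, with a median of 0.096. COL3A1 (2.35 ± 1.77, SD, 5 probe sets) and LUM (1.12 ± 1.41, SD, 2 probe sets) were past 2-fold on probe sets that disagreed. Of all genes, 0.632% were at least 2-fold higher. The bound placed 4 of the 5 COL3A1 probe sets and both LUM probe sets below 4. Endothelial markers lay between -0.24 and 0.16. Of 7 measured leukocyte markers, LYZ alone was past 2-fold, at 3.21-fold lower (-1.68 ± 0.15, SD, 2 probe sets), and neither probe set was placed below 4. Of all genes, 0.485% were at least 2-fold lower. The other leukocyte markers lay between -0.37 and 0.28. Both cultures are labelled as the established line Huh7 and no other cell type is named, so a marker value need not stand for its cell type. The part of other cell types in the differences of GPC5, GPC4 or SDC4 was not tested. In a culture, fewer cells of a kind and less RNA per cell cannot be told apart.

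Other ways of combining probe sets bear on few members, because the median and the largest probe set cannot turn the sign of a gene with 1 or 2 probe sets. GPC4 lay at 1.82 when probe sets with the suffix _s_at, _x_at or _a_at, which can match several transcripts, were left out, and GPC1 then had no probe set left. Without the probe sets placed below 4, GPC5 had no value and GPC4 alone was past 2-fold. After scaling by the spiked-in hybridisation controls, which shifts all differences up by 0.078, SDC4 reached 1.03 and 3 members were past 2-fold.

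**Figure D4:**
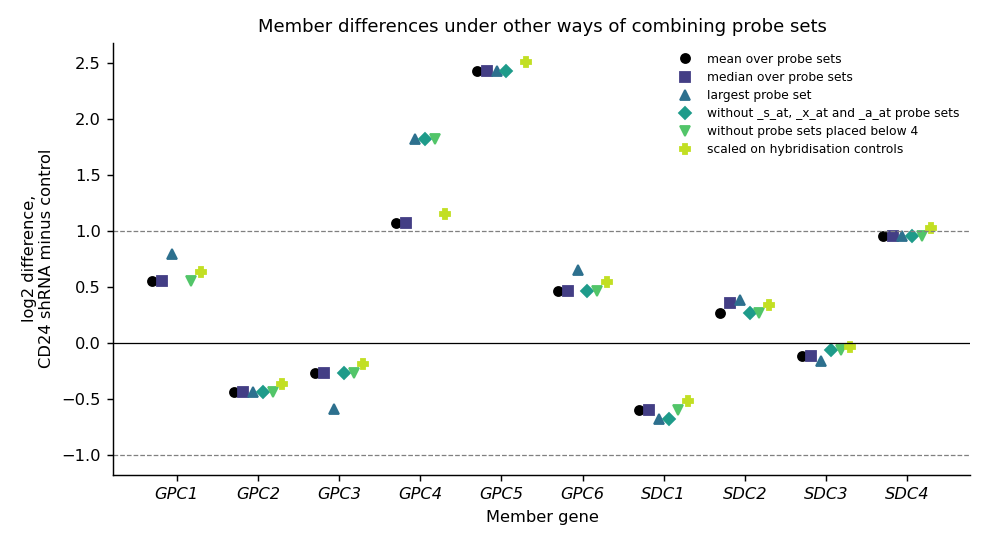
Log2 difference, CD24 shRNA minus control, of each member with the mean over probe sets (black circles) and under 5 other settings (coloured symbols); dashed lines mark 2-fold. GPC4 moves from 1.07 to 1.82 and GPC3 reaches -0.58 with its largest probe set, while its other probe set, not plotted alone here, lay at 0.060.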

How the data were processed

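Total RNA, extracted with Trizol and labelled with biotin per the labels, was hybridised to 1 array in each of 2 groups of Huh7 cells. The values the authors deposited are on the log2 scale. The submitters' processing notes name RMA, a method that corrects background, quantile-normalises arrays and summarises probes. For its software, its version and the later centring, the sources used here give nothing. The 2 values of every probe set sum to 0 within 1e-06, so levels are not in the table. Quantile normalisation removes shifts shared by all probe sets. A platform annotation with 1 symbol assigned 41091 probe sets to genes; 1801 named several genes and 62 were control probe sets. Differences, their SD over probe sets and counts past 2-fold were computed with Python 3.11.15 and pandas 2.3.3, and were checked on simulated data. With 1 array per group no test was run, and likeness of pattern between genes was not computed.

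The members and lists were chosen with earlier results of these data known. Named genes were all members, CD24 and, in each list, every gene past 2-fold, otherwise the 3 largest, of which 1 partner of the syndecan tail is not reported here; neighbours, marker genes and matrilins were added once their values were known. The alternatives were the median or largest probe set, leaving out probe sets that can match several transcripts or were placed below 4, centring, control scaling and thresholds of 1.5-fold and 3-fold. The planned protein comparison was not made.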

Additional observations from a re-analysis of the deposited data

How the results depend on the processing

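No paired analysis was possible because each group holds 1 array. Of 146 values recomputed under an alternative, 141 moved by less than the SD over probe sets or, for counts, by no more than 1.5 times. For medians and for genes with 1 probe set, this SD was the pooled 0.27. For a member with 1 or 2 probe sets, choosing among its probe sets could not exceed the limit, so that outcome was fixed in advance. Control scaling shifted every median by 0.078, so no median could fail that setting either. Under it the median of all genes lay at 0.078. The medians of linker and chain synthesis (0.003), GPI anchor synthesis (0.047) and receptors (0.046) then went from below to above 0. GPC4 counted among the 141 although it went from 1.07 to 1.82, because its own SD was 1.05. The other 5 of the 146 values moved further. The number of members at least 2-fold higher was 2, and was 1 at a 3-fold threshold (GPC5) and 1 without probe sets placed below 4 (GPC4, with GPC5 left without a value). The number at least 2-fold lower was 0, and was 1 at a 1.5-fold threshold (SDC1). SDC3 lay at -0.035 with the arrays scaled on hybridisation controls. The median of the matrix ligands of syndecans was 0.55 with the largest probe set of each gene, against 0.22. Signs of genes with 1 or 2 probe sets are fixed under the median and the largest probe set, so those settings say nothing about direction; the single GPC3 probe sets lay at 0.060 and -0.58. Centring on the median of all genes moved nothing, since that median is 0. Dim probe sets limit GPC5 and 1 of the 2 probe sets each of GPC4 and SDC3.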

Other observations

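Each syndecan gene lies near a gene of the matrilin family, which encodes adaptor proteins of the extracellular matrix, and these were read after the syndecan values had been seen. MATN3, with 1 coding gene between it and SDC1, was 3.99-fold higher with CD24 shRNA (log2 difference 1.998, 1 probe set), while SDC1 lay at -0.60. MATN4, with 1 coding gene between it and SDC4, lay at -0.52 on 1 probe set, while SDC4 lay at 0.95. MATN1, with 1 coding gene between it and SDC3, lay at 0.036 ± 0.188 (SD, 2 probe sets), both placed below 4. MATN2, with 4 coding genes between it and SDC2, lay at 0.39 ± 0.65 (SD, 2 probe sets), with 0.85 on one of them and -0.064 on the other. SDC1 and SDC4 therefore each differed from the nearby matrilin in direction, on 1 probe set of each matrilin. The coding gene between them lay at 0.097 for SDC1 (LAPTM4A) and at -0.53 for SDC4 (RBPJL), each on 1 probe set. For SDC4 the opposite direction was thus not particular to the matrilin.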
